A study of Homo sapiens with 12 samples.

Results

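TSKS, CSRP3, CHGB, MNS1 and TESMIN are 5 genes named for large changes with CHD4 shRNA in a pair of myeloid leukaemia models. All are best known from other tissues. TSKS and TESMIN are testis genes, MNS1 belongs to motile cilia and sperm tails, CSRP3 to striated muscle and CHGB to endocrine and nerve cells. They were chosen from measured changes on these same arrays: TSKS and CSRP3 for rises in U937, CHGB for a rise and TESMIN for a fall in MV4-11, and MNS1 for falls in both lines. The array measured them with 6 probe sets (TSKS with 2, the others with 1 each), out of 22215 probe sets and 11963 named genes. In the changes that led to the choice, values are given as a description without a test. TSKS and CSRP3 in MV4-11, and CHGB and TESMIN in U937, were tested, because those changes were not the ones that led to the choice. These tests are not fully independent of it. Their spread was pooled over both lines, and the members were chosen with earlier results of these data known.

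The 12 Affymetrix arrays form 4 groups of 3 biological replicates, namely MV4-11 with CHD4 shRNA, MV4-11 with scrambled shRNA, U937 with CHD4 shRNA and U937 with scrambled shRNA. Both are human myeloid lines used as models of acute myeloid leukaemia, MV4-11 myelomonocytic with an MLL fusion and U937 monocytic. All 4 groups carried a lentiviral pRRL.H1 vector that also expressed GFP, so the scrambled cells were transduced too. The shRNA target is written CDH4 in the sample labels but CHD4 in the description of the series, and CHD4 is used here. No source used here gives the time after transduction or whether cells were sorted or cloned. Values are log2 RMA values, means are given with their SD over 3 arrays, and changes are CHD4 shRNA minus scrambled on the log2 scale with the standard error (SE) of the limma fit. An adjusted p under 0.05 in that fit, over all 22215 probe sets, counts as past the threshold. A lack of overlap between groups is only a description, as the share of all probe sets without overlap is not given.

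CHD4 is the ATPase of NuRD, a complex that slides nucleosomes and removes acetyl groups from histones. NuRD is known for keeping genes of other lineages silent, and in mouse heart and skeletal muscle loss of Chd4 lets muscle genes of the wrong type be transcribed. Genes of testis, cilia, muscle and endocrine cells are normally at low levels in blood cells. On RNA from a whole culture, a change in the share of cells that transcribe a gene and a change in RNA per cell cannot be told apart.

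The 3 CHD4 probe sets were 3.39-fold to 3.99-fold lower with CHD4 shRNA in MV4-11 and 3.36-fold to 4.58-fold lower in U937. All passed the threshold in both lines, with limma adjusted p of at most 6e-05, and no arrays overlapped between groups. Of 8 myeloid markers 7 were measured, and their median level stood at percentile 91 to 93.6 of all probe sets in the 4 groups. However, MPO averaged only 5.20 to 5.78 and SPI1 only 6.40 to 6.54, below the array medians of 6.97 to 7.02. The median of the testis, muscle and endocrine markers lay at percentile 21.8 to 29.1. Motile cilium markers lay at percentile 41 to 44.8, with the axonemal gene SPAG6 the brightest at 8.29 to 8.78.

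Promoter sequences from RefSeq (GRCh38.p14) were matched for TSKS and MNS1, which changed in opposite directions in both lines. Whether CpG content goes with the direction of change was not tested. The sequences are shown because no other member was matched. Each is the 250 bases before the annotated start, read 5′ to 3′ along the gene, with CpG dinucleotides in capitals.
TSKS, chr19:49763307-49763556, minus strand: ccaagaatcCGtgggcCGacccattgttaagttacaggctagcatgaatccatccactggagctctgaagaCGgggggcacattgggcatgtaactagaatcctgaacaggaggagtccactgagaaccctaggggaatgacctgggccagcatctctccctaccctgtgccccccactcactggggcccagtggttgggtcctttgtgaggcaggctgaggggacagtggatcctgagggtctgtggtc
MNS1, chr15:56465138-56465387, minus strand: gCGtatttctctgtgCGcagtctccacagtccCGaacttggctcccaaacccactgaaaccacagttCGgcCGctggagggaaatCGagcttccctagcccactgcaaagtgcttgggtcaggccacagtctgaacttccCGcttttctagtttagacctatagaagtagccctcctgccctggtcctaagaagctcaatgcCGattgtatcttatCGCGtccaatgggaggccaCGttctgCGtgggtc

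Over the 300-base window of the RefSeq table, which adds the 50 bases after the start, TSKS had 3 CpG and MNS1 had 19, against a median of 14 over 35116 promoters. As few CpG as in TSKS were found in 24.5% of promoters, and as many as in MNS1 in 42.9%. GC content was 58.3% for TSKS and 57% for MNS1. Motifs were searched on both strands of the same window. CCAAT began 29 bases before the start of MNS1 on the gene's strand and 169 bases before the start of TSKS on the opposite strand, and 34.6% of all promoters hold it. GTTGCC, part of the X-box bound by the RFX factors of cilium genes, began at base 35 after the start of MNS1, was not in the TSKS window and is held by 12.2% of promoters. Neither window held the cyclic AMP response element TGACGTCA (1.85% of promoters) or TATAAA (11.5%).

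TSKS encodes a substrate of the testis-specific serine kinases that is made in spermatids. The suffix _s_at marks a probe set that can bind several transcripts. Probe set 220545_s_at had 7.71, 7.55 and 8.0 in MV4-11 with CHD4 shRNA, against 5.59, 6.52 and 5.94 in MV4-11 scrambled arrays. In U937 it had 7.74, 7.71 and 7.77 with CHD4 shRNA, against 4.74, 4.84 and 4.97 in scrambled arrays. Neither line showed any overlap of its groups, and both CHD4 shRNA groups ended at nearly the same level, 7.75 ± 0.23 in MV4-11 and 7.74 ± 0.03 in U937 (SD, n = 3 each), which is percentile 60.4 and 60.7 of all probe sets. In MV4-11 the change was 1.74 (SE 0.19), a 3.33-fold rise that was past the threshold (limma adjusted p = 0.000297). In that line 7.47% of all probe sets were past it. In U937, whose change led to the choice, the difference was 2.89 (SE 0.19), or 7.41-fold.

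For 220545_s_at, scrambled arrays averaged 6.02 ± 0.47 in MV4-11 and 4.85 ± 0.12 in U937 (SD, n = 3 each), a difference of 1.17 (SE 0.19). Differences between the scrambled lines are given without a test for every member, because the scrambled arrays entered the changes that led to the choice. Over all probe sets, 4.45% were past the threshold in that comparison. The MV4-11 change minus the U937 change was -1.15 (SE 0.26), and this difference was not tested because it holds the change that led to the choice. The other TSKS probe set, 220544_at, moved much less. It had 6.57, 6.83 and 6.59 in MV4-11 with CHD4 shRNA, against 5.96, 6.57 and 6.19 in scrambled arrays, and these groups touched at 6.57. Its change there was 0.42 (SE 0.16, limma adjusted p = 0.122), and with a replicate block in MV4-11 the adjusted p was 0.0431. In U937 it had 6.74, 7.02 and 6.86 with CHD4 shRNA, against 6.63, 6.42 and 6.20 in scrambled arrays, a difference of 0.46 (SE 0.16). The probe sets of TSKS therefore shared a direction but differed in size in both lines, and which of them follows the transcript was not tested.

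TESMIN, a germ-cell protein with cysteine-rich CXC domains that was first named for a likeness to metallothioneins, varied most between replicates. Its probe set 219786_at had 5.59, 5.52 and 7.61 in MV4-11 with CHD4 shRNA, against 7.85, 8.18 and 8.78 in scrambled arrays. In U937 it had 7.74, 7.59 and 5.84 with CHD4 shRNA, against 7.54, 7.73 and 7.57 in scrambled arrays. In each line the CHD4 shRNA arrays split, with 2 low arrays and 1 near the scrambled level in MV4-11, and 1 low array and 2 at the scrambled level in U937. The MV4-11 change, which led to the choice, was -2.03 (SE 0.54), with a gap of only 7.61 to 7.85 between the nearest arrays of the groups. Without CHD4 shRNA replicate 3 it was -2.71. In U937 the change was -0.56 (SE 0.54), not past the threshold (limma adjusted p = 0.693), and 0.05 without CHD4 shRNA replicate 3.

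TESMIN was set beside CHD4 array by array. The CHD4 probe set 201183_s_at had 8.79, 8.85 and 8.39 in MV4-11 CHD4 shRNA replicates 1, 2 and 3, so the array with the highest TESMIN had the lowest CHD4. In U937 it had 8.23, 8.13 and 8.45, so the array with the lowest TESMIN had the highest CHD4 of the 3 in this probe set. Scrambled TESMIN levels were 8.27 ± 0.47 in MV4-11 and 7.61 ± 0.10 in U937 (SD, n = 3 each), a difference of 0.66 (SE 0.54).

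**Figure D1:**
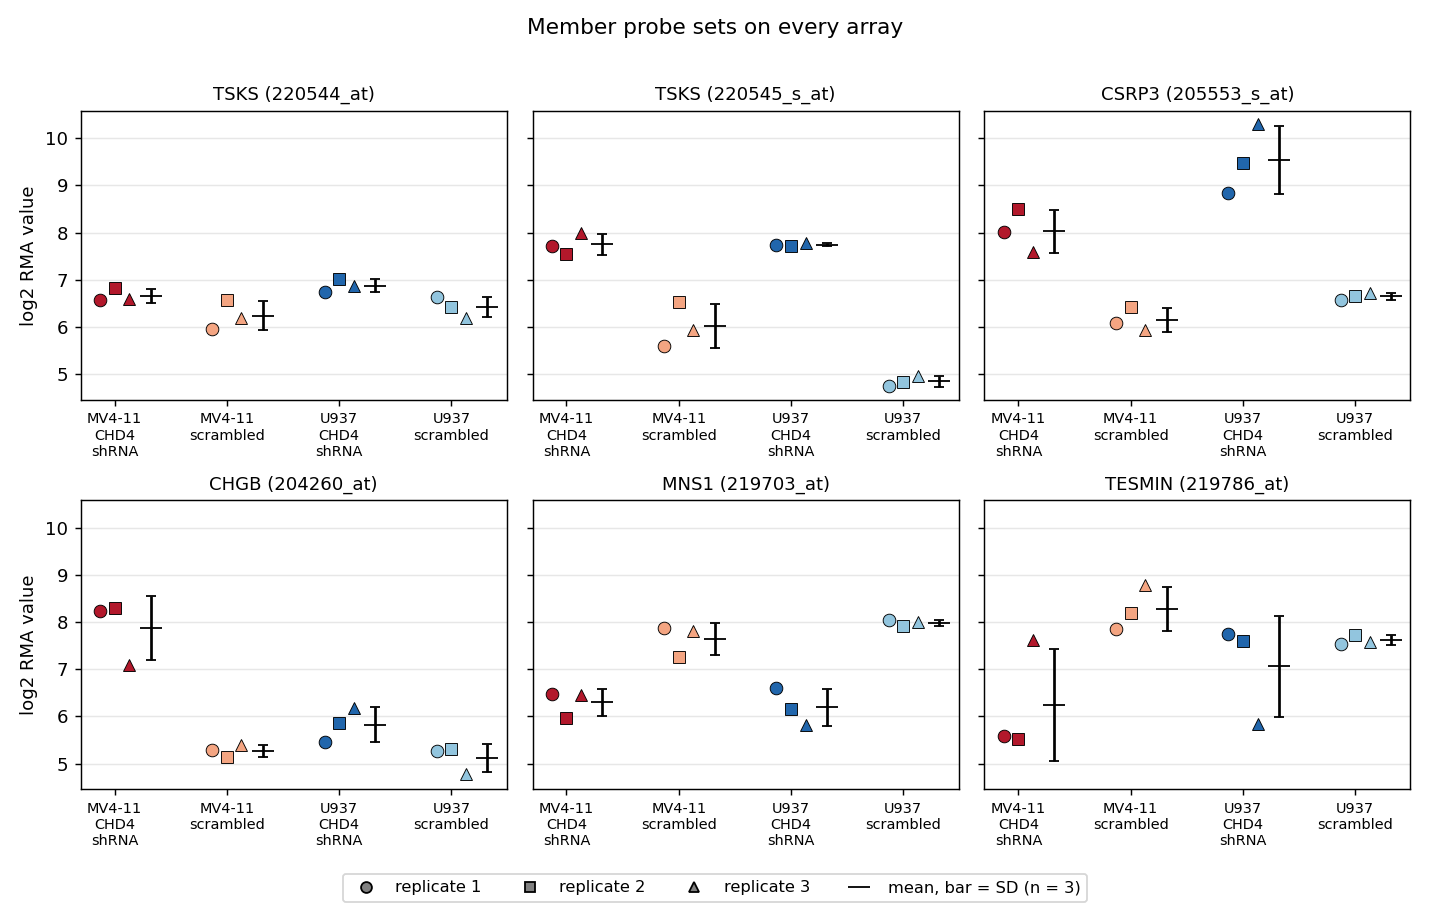
Log2 RMA value of each member probe set on every array, with MV4-11 CHD4 shRNA, MV4-11 scrambled, U937 CHD4 shRNA and U937 scrambled from left to right. Marker shape gives the replicate, and the dash with its bar gives the mean and SD (n = 3). TSKS 220545_s_at reaches 7.55 to 8.0 in all 6 CHD4 shRNA arrays, and TESMIN splits within both CHD4 shRNA groups.

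MNS1 encodes a coiled-coil protein of the axoneme, the microtubule core of motile cilia and sperm tails, and takes its name from meiotic germ cells of the mouse. Its probe set 219703_at had 6.48, 5.97 and 6.45 in MV4-11 with CHD4 shRNA, against 7.87, 7.26 and 7.80 in scrambled arrays. The U937 arrays had 6.60, 6.16 and 5.82 with CHD4 shRNA, against 8.04, 7.91 and 8.0 in scrambled arrays. All 6 CHD4 shRNA arrays lay below all 6 scrambled arrays. The change was -1.34 (SE 0.20) in MV4-11 and -1.79 (SE 0.20) in U937, which is 2.54-fold and 3.46-fold lower. Both changes led to the choice, so neither was tested. Scrambled levels of 7.64 ± 0.33 in MV4-11 and 7.98 ± 0.07 in U937 (SD, n = 3 each), percentile 59.1 and 63.7 of all probe sets, differed by -0.34 (SE 0.20).

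CSRP3 encodes muscle LIM protein, a cofactor and structural protein of the Z-disc of heart and skeletal muscle. Its probe set 205553_s_at had 8.02, 8.49 and 7.58 in MV4-11 with CHD4 shRNA, against 6.09, 6.43 and 5.93 in scrambled arrays. In U937 it had 8.85, 9.47 and 10.30 with CHD4 shRNA, against 6.58, 6.66 and 6.72 in scrambled arrays. Every CHD4 shRNA array was above every scrambled array of either line. The MV4-11 rise was 1.88 (SE 0.30), or 3.68-fold, past the threshold (limma adjusted p = 0.0034) and past it without each array in turn. The U937 difference, which led to the choice, was 2.89 (SE 0.30), or 7.4-fold, and it took the probe set to a mean percentile of 82.1. Scrambled levels were 6.15 ± 0.26 in MV4-11 and 6.65 ± 0.07 in U937 (SD, n = 3 each) and differed by -0.50 (SE 0.30). The MV4-11 change minus the U937 change was -1.01 (SE 0.42), not tested.

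CHGB encodes chromogranin B, an acidic granin packed into the dense-core secretory granules of endocrine cells and neurons. Its probe set 204260_at had 8.23, 8.29 and 7.09 in MV4-11 with CHD4 shRNA, against 5.28, 5.14 and 5.39 in scrambled arrays. The U937 arrays had 5.45, 5.86 and 6.17 with CHD4 shRNA, against 5.26, 5.31 and 4.78 in scrambled arrays. The nearest arrays of the groups lay at 7.09 and 5.39 in MV4-11 and at 5.45 and 5.31 in U937. The MV4-11 change, which led to the choice, was 2.60 (SE 0.28), or 6.06-fold. In U937 the change was 0.71 (SE 0.28), or 1.64-fold, and was not past the threshold (limma adjusted p = 0.193), which 4.51% of all probe sets passed. That adjusted p was 0.0333 without MV4-11 CHD4 shRNA replicate 3, an array that enters it only through the pooled spread. Scrambled levels were 5.27 ± 0.13 in MV4-11 and 5.12 ± 0.29 in U937 (SD, n = 3 each), a difference of 0.15 (SE 0.28). The MV4-11 change minus the U937 change was 1.89 (SE 0.39), not tested.

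**Figure D2:**
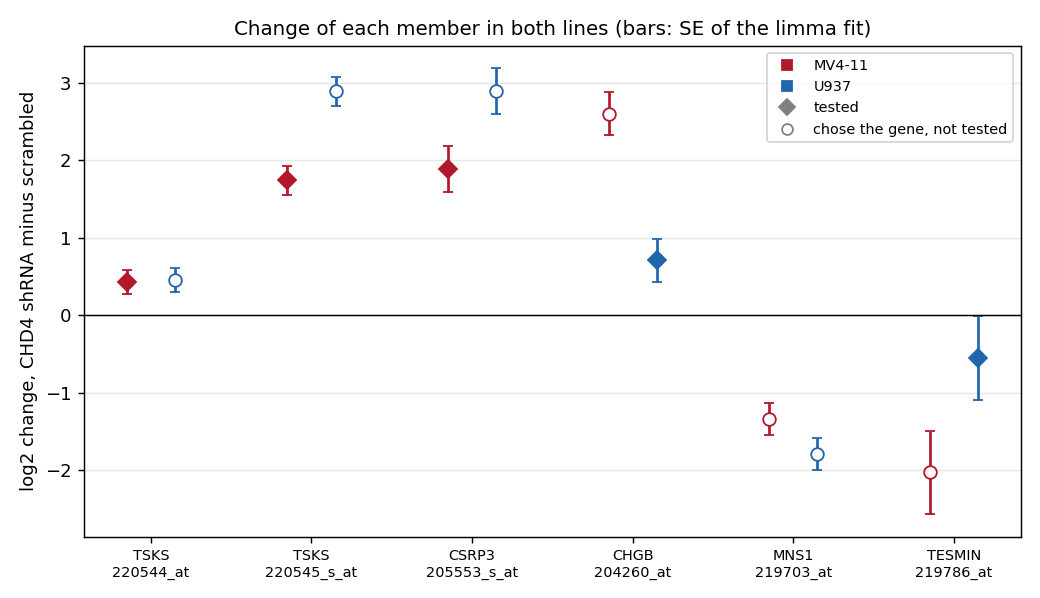
Log2 change, CHD4 shRNA minus scrambled, of each member probe set in MV4-11 (red) and U937 (blue), with the SE of the limma fit. Filled diamonds were tested and open circles are changes that led to the choice. TSKS 220545_s_at and CSRP3 lie well above 0 in both lines, while CHGB and TESMIN changed by 0.71 and -0.56 in U937.

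In order of their scrambled levels, MV4-11 ran from TESMIN (8.27) and MNS1 (7.64) down to CSRP3 (6.15), TSKS 220545_s_at (6.02) and CHGB (5.27), and U937 from MNS1 (7.98), TESMIN (7.61) and CSRP3 (6.65) to CHGB (5.12) and TSKS 220545_s_at (4.85). Among all 22215 probe sets, TSKS 220545_s_at and CSRP3 ranked 3 and 4 among rises in U937 and MNS1 9 among falls. In MV4-11 CHGB ranked 8 among rises, and TESMIN 4 and MNS1 28 among falls. These changes led to the choice, so their ranks are a description. In the line that did not lead to the choice, ranks were lower. TSKS 220545_s_at and CSRP3 ranked 61 and 50 among rises in MV4-11. In U937 CHGB ranked 222 among rises and TESMIN 521 among falls. TSKS 220544_at ranked 629 among rises in U937 and 1457 in MV4-11. The levels are probe set signals, which do not compare transcript amounts between genes. With CHD4 shRNA, CSRP3 was at 8.03 ± 0.46 in MV4-11 and 9.54 ± 0.73 in U937, and CHGB at 7.87 ± 0.68 in MV4-11 and 5.83 ± 0.36 in U937 (SD, n = 3 each).

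Against the mean of a line's scrambled arrays, the size of the response differed between replicates in a way that several members shared. In U937, CHD4 shRNA replicate 3 was farthest from the scrambled mean for CSRP3 (3.65, against 2.20 and 2.82 in replicates 1 and 2), CHGB (1.05, against 0.33 and 0.74), MNS1 (-2.16, against -1.38 and -1.82) and TESMIN (-1.77, against 0.13 and -0.02). In MV4-11, CHD4 shRNA replicate 3 was nearest to the scrambled mean for CSRP3 (1.43, against 1.87 and 2.34), CHGB (1.82, against 2.96 and 3.02) and TESMIN (-0.66, against -2.68 and -2.75). TSKS 220545_s_at did not follow this, at 2.86 to 2.92 in U937 and 1.53 to 1.98 in MV4-11, where replicate 3 was highest, nor did TSKS 220544_at in either line or MNS1 in MV4-11, at -1.16, -1.67 and -1.19. CHD4 itself (201183_s_at) stood at -2.28 in MV4-11 replicate 3, the strongest fall of the 3, and at -2.02 in U937 replicate 3, the weakest. The other CHD4 probe sets were also lowest in MV4-11 replicate 3, while in U937 replicate 3 was the middle or the weakest array. Replicate numbers paired the MV4-11 arrays, while these deviations use the mean of the scrambled arrays. Against the MV4-11 scrambled array of the same number, replicate 3 stayed nearest for CSRP3, CHGB and TESMIN. By that measure TSKS 220545_s_at rose most in replicate 1, and MNS1 replicate 2 was no longer the farthest. These arrays also differed over all probe sets. Without MV4-11 CHD4 shRNA replicate 3, the count past the threshold in MV4-11 went from 1659 to 3143. Without U937 CHD4 shRNA replicate 3, the count in U937 went from 1002 to 493. What sets these arrays apart, and whether the pattern is particular to the members, was not tested.

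**Figure D3:**
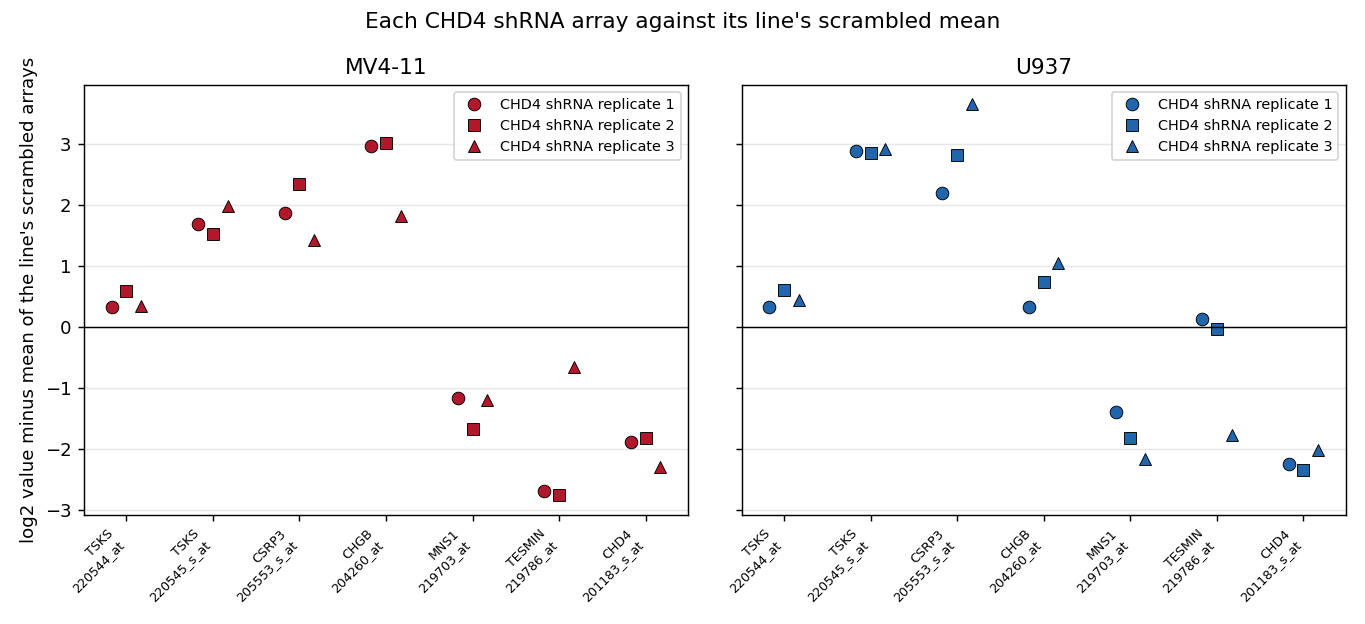
Log2 value of each CHD4 shRNA array minus the mean of its line's scrambled arrays, for the member probe sets and CHD4, in MV4-11 (left) and U937 (right), with a marker shape for each replicate. Replicate 3 (triangles) is the most displaced array in U937 for CSRP3, CHGB, MNS1 and TESMIN and the least displaced in MV4-11 for CSRP3, CHGB and TESMIN.

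The genes whose levels followed each member most closely over the 12 arrays were found among the 11963 genes by Pearson correlation. These values are a description, and arrays of one group share its condition. For TSKS 220545_s_at they were the dehydrogenase DHRS1 (r = 0.96), the sodium pump subunit ATP1B1 (0.956) and the protein kinase PRKD2 (0.954). CSRP3 was followed by WDFY3, a scaffold of selective autophagy (0.985), the cytolinker periplakin PPL (0.976) and TSPAN3 (0.963). CHGB was followed by the methyltransferase GNMT (0.975), interleukin-1 beta IL1B (0.96) and the peroxisomal oxidase ACOX2 (0.956), and the changes of ACOX2 and IL1B in MV4-11 were 2.27 and 1.97. MNS1 was followed by the actin-severing protein DSTN (0.983), CFDP1 (0.979) and the signal recognition particle subunit SRP72 (0.969). TESMIN was followed by PARP16 (0.983), the recombination protein RAD52 (0.981) and RHOBTB1 (0.979), with changes of -0.89, -0.34 and -1.27 in MV4-11 and -0.37, -0.17 and -0.43 in U937. By rank (Spearman), the correlations of all these pairs ran from 0.741 (TESMIN and PARP16) to 0.986 (CSRP3 and WDFY3). The rank correlation was 0.774 for CHGB and ACOX2 and 0.844 for TESMIN and RAD52. Among the member probe sets themselves, Pearson r over the same arrays ran from -0.941 (TSKS 220545_s_at and MNS1) to 0.827 (TSKS 220544_at and CSRP3). CHGB and TESMIN had -0.786, and the TSKS probe sets had 0.659 with each other. The members were chosen for changes between these groups, so these values are not independent of the choice.

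Few other genes of the members' tissues and families were past the threshold. Over 8 lists with 214 measured genes, members left out, 5 rose and 3 fell in MV4-11, which is 3.74%, beside 8.75% of all genes. In U937 4 rose and 2 fell, which is 2.8%, beside 5.53% of all genes. The median change over these genes was -0.04 in MV4-11 and 0.02 in U937, against -0.03 and -0.00333 over all genes. With a replicate block in MV4-11, 15 of the 214 were past the threshold, beside 1767 of all 11963 genes (14.8%). Without MV4-11 CHD4 shRNA replicate 3 there were 22 of the 214, beside 1854 of all 11963 genes (15.5%). In scrambled arrays the median level was 4.86 to 6.27 in the sperm, meiosis, cilium, muscle and endocrine lists. It was 7.26 to 10.1 in the LIM-only, MuvB and metallothionein lists. The median over all genes and arrays was 7.5. What the low levels do to these shares was not tested.

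Among 37 spermatid and sperm genes, SPA17, a sperm surface protein, fell by 0.78 on the log2 scale (SE 0.16) in MV4-11, and it was the only one past the threshold there. In U937 the protamine PRM2 rose by 0.35 (SE 0.08) to a level of 4.48 ± 0.05, against 4.13 ± 0.07 in scrambled arrays (SD, n = 3 each), and the heat shock protein HSPA1L by 0.48 (SE 0.11). HSPA1L has near-identical relatives, so its probe set is uncertain. The kinases TSSK1B and TSSK2, which act on TSKS, had -0.20 and -0.21 in MV4-11 and 0.12 and 0.04 in U937, and both were chosen for naming after their values were seen. Calls made up 2.7% of this list in MV4-11 and 5.41% in U937, beside 8.75% and 5.53% of all genes. The medians of this list were -0.06 in MV4-11 and 0.02 in U937. Leaving out single arrays gave 0 to 2 calls in this list in U937 (0 without scrambled array 1 or 2 of that line, or without its CHD4 shRNA array 2 or 3).

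None of 20 meiosis genes or 31 motile cilium genes was past the threshold in limma in either line. At an unadjusted p under 0.05 there were 5 and 3 in MV4-11, and 3 and 2 in U937. With the replicate block in MV4-11, 2 of the 20 meiosis genes and 2 of the 31 cilium genes passed, when 14.8% of all genes did. Among them were the germ-cell cyclin CCNA1 at 0.60 (SE 0.15, adjusted p = 0.0263) and the dynein light chain DNAL4 at -0.51 (SE 0.15, adjusted p = 0.0481). CCNA1 was already at 11.58 ± 0.15 in MV4-11 scrambled arrays (SD, n = 3). Leaving out single arrays gave 0 to 3 meiosis calls in MV4-11 (3 without CHD4 shRNA replicate 3, 2 without U937 CHD4 shRNA replicate 3) and 0 or 1 in U937. For cilium genes it gave 0 or 1 in MV4-11 and 0 in U937. The lowest p in U937 belonged to the meiotic mismatch protein MSH4 at 0.35 (SE 0.11, limma adjusted p = 0.0989) and the axonemal dynein DNAH17 at 0.36 (SE 0.13, limma adjusted p = 0.166). List medians lay between -0.03 and 0.06.

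Of 55 striated muscle genes, TNNT1, the slow skeletal troponin T, rose by 0.69 (SE 0.10) in MV4-11 and by 0.67 (SE 0.10) in U937 (limma adjusted p = 0.00193 and 0.0024). Its scrambled levels were already 8.92 ± 0.07 in MV4-11 and 8.15 ± 0.04 in U937 (SD, n = 3 each). ACTN2, the Z-disc alpha-actinin, rose by 0.58 (SE 0.13) in MV4-11 only by its brightest probe set, while its 3 other probe sets, at -0.07 to 0.39, were not past the threshold (the highest of these was with the replicate block, adjusted p = 0.0379). Leaving out single arrays gave 1 to 3 calls in this list in MV4-11, and 1 in U937. Calls made up 3.64% of the muscle list in MV4-11 and 1.82% in U937, beside 8.75% and 5.53% of all genes. The median of the list was -0.04 in MV4-11 and 0.04 in U937. CSRP1, the paralogue of CSRP3 found in smooth muscle and many other cells, rose in both lines, by 1.17 (SE 0.18, limma adjusted p = 0.0029) in MV4-11 and by 0.71 (SE 0.18, limma adjusted p = 0.0438) in U937. CSRP2, the other paralogue, had -0.10 in MV4-11 and -0.19 in U937, and neither of its 2 probe sets was past the threshold. CRIP1, a small relative of the LIM-only family, rose by 0.98 (SE 0.16) in MV4-11 (limma adjusted p = 0.00453). These were 2 of 12 measured LIM-only relatives in MV4-11 (16.7%) and 1 in U937 (8.33%), beside 8.75% and 5.53% of all genes. In U937 the call held on leaving out U937 CHD4 shRNA replicate 1, MV4-11 CHD4 shRNA replicate 2 or 3 or MV4-11 scrambled replicate 3. It ended on leaving out any other array. The list medians were -0.07 in MV4-11 and 0.04 in U937. Whether the CSRP3 probe set also binds CSRP1 RNA was not tested.

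Of 37 dense-core granule and endocrine genes, 1 rose and 2 fell in MV4-11, and 2 fell in U937. That is 8.11% and 5.41%, close to the 8.75% and 5.53% of all genes. PAM, the enzyme that amidates peptides inside secretory granules, fell by 1.36 on the log2 scale (SE 0.12) in MV4-11 and by 1.34 (SE 0.12) in U937, and its 3 probe sets were all past the threshold in both lines. The brightest of them had scrambled levels of 8.99 ± 0.15 in MV4-11 and 9.52 ± 0.07 in U937 (SD, n = 3 each). INSM1, a zinc-finger factor of endocrine progenitors, fell by 0.72 (SE 0.14) in MV4-11 and by 0.57 (SE 0.14) in U937 (limma adjusted p = 0.00922 and 0.0384). ENO2, the neuronal enolase, rose by 0.57 (SE 0.11) in MV4-11. No other granin of the list was past the threshold. CHGA had -0.14 (SE 0.13) in each line, and SCG2 had 0.14 in MV4-11 and 0.39 in U937 (SE 0.14 each), with limma adjusted p of 0.158 or more for these genes. Leaving out single arrays gave 1 or 2 calls in U937 and 3 to 5 in MV4-11. The list medians were -0.05 in MV4-11 and -0.00333 in U937.

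MuvB is a cell cycle complex whose DNA-binding subunit LIN54 has CXC domains like those of TESMIN. No gene of the MuvB and B-MYB list was past the threshold in limma. The list medians were 0.02 in MV4-11 and -0.04 in U937. Of the 12 measured, 2 in MV4-11 and 1 in U937 had an unadjusted p under 0.05, with the dimerisation partner TFDP2 lowest in p at -0.76 (SE 0.25, limma adjusted p = 0.0878) in MV4-11 and -0.69 (SE 0.25, limma adjusted p = 0.164) in U937. With the replicate block, TFDP2 passed in MV4-11 (adjusted p = 0.0277). The metallothionein list, which also holds the zinc exporter SLC30A1 and the transcription factor MTF1, had 11 measured genes. None was past the threshold, while 6 in MV4-11 and 2 in U937 had an unadjusted p under 0.05. Their median change in MV4-11 was 0.35, and 5 of the 11 rose past the threshold without CHD4 shRNA replicate 3, when 15.5% of all genes were past it. Their median change in U937 was -0.03. The lowest p in both lines belonged to MTF1, which responds to metals and acts on metallothionein genes, at 0.26 (SE 0.09, limma adjusted p = 0.086) in MV4-11 and 0.22 (SE 0.09, limma adjusted p = 0.199) in U937. The other MTF1 probe set was at 0.06 in MV4-11 and 0.31 in U937 (limma adjusted p = 0.806 and 0.11). Metallothionein genes are near-identical copies, so which of them a probe set reads is uncertain.

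**Figure D4:**
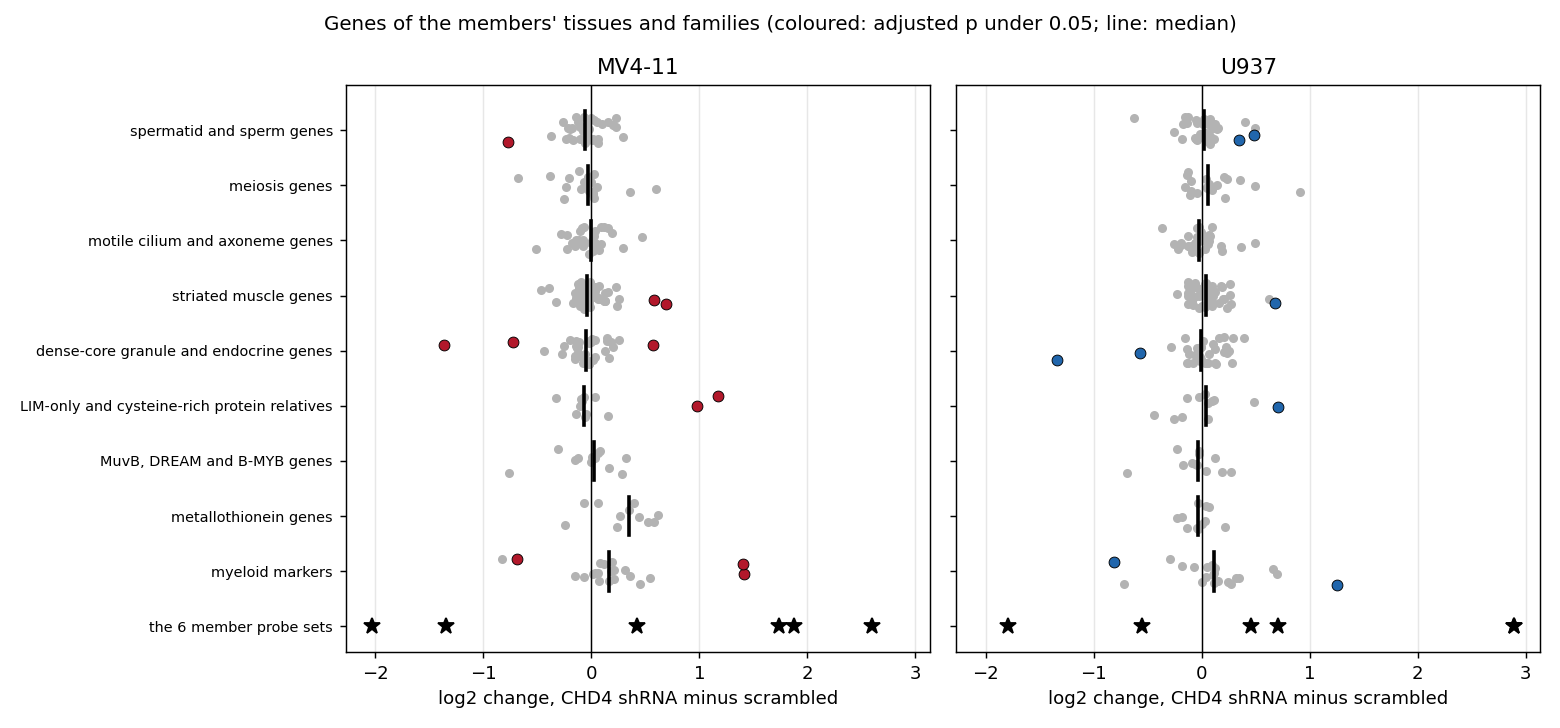
Log2 change, CHD4 shRNA minus scrambled, of every measured gene of the 9 lists, 1 point a gene, in MV4-11 (left) and U937 (right). Coloured points had an adjusted p under 0.05, vertical lines are list medians and stars are the 6 member probe sets. List medians lie between -0.07 and 0.35, and the stars of TSKS 220545_s_at and CSRP3 coincide at 2.89 in U937.

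Neighbouring genes were read from the order in the RefSeq gene table, taking the 3 nearest measured genes on each side of every member. Of these 30 neighbours, 3 rose and 2 fell in MV4-11, and 2 fell in U937, which is 16.7% and 6.67%, beside 8.75% and 5.53% of all genes. With the replicate block in MV4-11 there were 7, or 23.3%, beside 14.8% of all genes. Beside CSRP3, the palmitoyltransferase ZDHHC13 rose by 0.65 (SE 0.13) and the cell cycle repressor E2F8 by 0.50 (SE 0.14) in MV4-11, and NAV2 changed by -0.91 (SE 0.16) in MV4-11 and -0.69 (SE 0.16) in U937. Beside CHGB, the lipid enzyme CDS2 rose by 0.43 (SE 0.11) in MV4-11, and the integrin activator FERMT1 changed by -0.82 (SE 0.20) in MV4-11 and -0.97 (SE 0.20) in U937. No neighbour of TSKS, MNS1 or TESMIN was past the threshold in limma without the block. With it, TCF12 beside MNS1 (adjusted p = 0.0423) and CPT1A beside TESMIN (adjusted p = 0.0096) were, at -0.32 and -0.41.

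Of 21 measured myeloid markers, FCER1G and ITGAM rose and ELANE fell in MV4-11, and FCER1G rose and ELANE fell in U937, which is 14.3% and 9.52%, beside 8.75% and 5.53% of all genes. Leaving out single arrays gave 2 to 5 calls in MV4-11 (5 without U937 CHD4 shRNA replicate 3) and 1 to 3 in U937 (1 without U937 scrambled replicate 1 or 2). FCER1G, the signalling chain of Fc receptors, changed by 1.41 (SE 0.20) in MV4-11 and 1.25 (SE 0.20) in U937, and neutrophil elastase, ELANE, by -0.69 (SE 0.17) in MV4-11 and -0.82 (SE 0.17) in U937. The ITGAM rise in MV4-11 was 1.41 by one probe set, while its other probe set was at -0.11. The median of the list was 0.16 in MV4-11 and 0.11 in U937, and its part in the changes of the 5 genes was not tested.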

How the data were processed

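The deposited table holds log2 values per probe set on 12 Affymetrix arrays, made by the authors with RMA per the submitters' processing notes. No source used here gives the RMA version or says whether all arrays were summarised together. That the scale is log2 follows from the deposited values, which ran between 2.54 and 15.11 with array medians of 6.97 to 7.02. No array repeated another. After 62 control probe sets were left out of 22277, 22215 remained, of which 19064 had 1 gene symbol in the platform annotation, 1043 several and 2108 none. Entrez IDs of 19052 were found in the RefSeq table. The probe set with the highest mean stood for each of 11963 genes, 4310 of which had several.

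A model with 1 mean per group was fitted with limma 3.58.1 in R 4.3.3 (lmFit and eBayes, 8 residual and 4.86 prior degrees of freedom), so the spread was pooled over both lines, and Benjamini-Hochberg adjustment covered all probe sets. P-values measure the spread between 3 arrays a group, and that number limits the precision. The fit was tested on simulated data. A test of the members between scrambled lines was planned and is not given, since those arrays entered the changes that led to the choice. Replicate numbers paired the MV4-11 samples by their deviations from the group means (r = 0.432, 0.469 and 0.494), but not all U937 samples (0.0118 for the lowest pair). The members and gene lists were chosen with earlier results of these data known. Genes named from each list and line were, at most, the 2 largest changes past the threshold in each direction, or the lowest p where none passed. CSRP1, CSRP2, CHGA and SCG2 were named whatever their result, as were neighbours past the threshold and, for each member, the 3 most alike genes. LIN54, a MuvB relative of TESMIN, was not among the genes with a single-symbol probe set. RefSeq promoters (GRCh38.p14) matched 2 of the 5 members. Alternatives were quantile normalization, median centring, a trended and robust eBayes, leaving out the dimmest 25% of probe sets, 1 probe set or the probe set mean per gene, only the groups compared, replicate blocks and leaving out each array. The block in MV4-11 alone was chosen after seeing the data.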

Additional observations from a re-analysis of the deposited data

How the results depend on the processing

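TSKS 220545_s_at and CSRP3 in MV4-11 kept their direction and stayed past the threshold under every alternative run, at 1.52 to 1.99 and 1.65 to 2.11. TSKS 220544_at in MV4-11 kept 0.42 with a replicate block and passed the threshold (limma adjusted p = 0.0406 with a block in each line, 0.0431 in MV4-11 alone), and ran between 0.28 and 0.59 without single arrays (0.0481 without MV4-11 scrambled replicate 2). CHGB in U937 ran between 0.54 and 0.90 and passed only without MV4-11 CHD4 shRNA replicate 3 (0.71, adjusted p = 0.0333). TESMIN in U937 ran between -0.90 and 0.052, above 0 only without U937 CHD4 shRNA replicate 3, and CHGB between scrambled lines between -0.015 and 0.25, below 0 only without U937 scrambled replicate 3. Counts of probe sets past the threshold moved more. In MV4-11 the 1659 became 718 with only the groups compared, 3700 with a replicate block in each line, 2912 with it in MV4-11 alone and 546 to 3143 without single arrays (highest without CHD4 shRNA replicate 3, lowest without its replicate 1, and 829 to 913 without CHD4 shRNA replicate 2 or scrambled replicate 2 or 3). In U937 the 1002 became 2151 with the block, where the numbers are only shared, and 396 to 1210 without single arrays (396 without CHD4 shRNA replicate 2, and 465 to 551 without CHD4 shRNA replicate 3 or any scrambled replicate). Between scrambled lines the 988 became 655 with 1 probe set per gene and 421 to 1280 without single arrays (421 to 453 without U937 scrambled replicate 1 or 2 or MV4-11 scrambled replicate 2 or 3). Over the 8 lists together, the 8 calls in MV4-11 became 16 with a block in each line, 15 with it in MV4-11 alone and 7 to 22 without single arrays, and the 6 in U937 became 10 with the block and 2 to 7 without single arrays (2 or 3 without MV4-11 CHD4 shRNA replicate 1 or any U937 array other than CHD4 shRNA replicate 1). The cause was not tested. 220544_at has no value with 1 probe set per gene, and a block within each line gives no contrast of the scrambled lines. Without the dimmest 25% of probe sets, 1732 were past the threshold in MV4-11 and 1101 in U937.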
